A study of Danio rerio with 36 samples.

Results

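RNA levels of genes of the fasting response and of glucose production were followed in RNA-seq of zebrafish embryos and larvae, for 9 of the 30490 genes in the count table. They were chosen by symbol with earlier results of these data known, so counts and medians set beside all genes are descriptions, not tests. All 9 symbols were present: pck1, fbp1b, pdk4, foxo1a, foxo3b, ppargc1a, igfbp1a, igfbp1b and angptl4. The animals were wild type or kctd15 mutants at 6 stages. The youngest were 1 somite and 25 hpf (hours post fertilization) embryos, and the older ones were sampled at 2, 5, 9 and 14 day. Genotype and stage made 12 groups, with 3 libraries in each that the labels call biological replicates, so 36 in all. The labels name the genotype only as kctd15 mutant, without an allele, a paralog, a background strain or the number of animals per library. Per the labels' protocols the larvae were fed by the facility's routine. The age at first feeding, the time since the last meal and the hour of collection are not given in the sources used here, and they are unknown for every value below.

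A fasting vertebrate keeps blood glucose up by making new glucose in liver and kidney and by burning fat in place of sugar. Insulin normally holds this program back: it drives FoxO transcription factors out of the nucleus, while glucagon and glucocorticoids, with the coactivator encoded by ppargc1a, turn it on. In young zebrafish the yolk is the fuel until the larva feeds on its own, and several of these genes also respond to glucocorticoids or to low oxygen. The enzymes come first here, then the kinase that switches fuel, the transcription regulators and the secreted proteins.

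Library totals ran from 5512118 to 12523019 estimated counts, and at 25 hpf the mutant libraries were shallower than the wild-type ones. Levels are given as CPM, a count divided by its library total, scaled between libraries by TMM. The mean ± SD of a level is over 3 libraries. After a log2 fold change, ± is an approximate standard error. It is the absolute log2 fold change divided by the square root of edgeR's F statistic. Tests were edgeR's quasi-likelihood test fitted to all genes, with Benjamini-Hochberg adjustment and a threshold of 0.05. The labels do not say that replicates came from separate clutches, so p-values measure only the spread between these libraries. In such bulk samples, fewer cells of a type and less RNA per cell cannot be told apart. Summed over 16 liver marker genes, wild-type libraries held 1779 to 2008 CPM at 1 somite and 12566 to 13596 CPM at 14 day. Summed over 9 fast muscle marker genes they held 6.64 to 11.7 CPM at 1 somite and 78589 to 92620 CPM at 14 day, so marker levels differed widely between stages. The labels do not say which kctd15 paralog was mutated, and neither was lost as RNA in the mutant libraries. kctd15a was higher than in wild type at every stage, from log2 0.60 ± 0.10 at 1 somite to 1.96 ± 0.17 at 5 day, without overlap. kctd15b was higher from 25 hpf on. The RNA levels of the paralogs therefore cannot check the genotype labels by absence.

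In wild type, all 9 genes were higher at 5 day than at 2 day and lower at 9 day than at 5 day. From 2 to 5 day 61% of all genes tested passed, with 30.8% higher and 30.2% lower. From 5 to 9 day 49.3% passed, with 25.4% higher and 23.9% lower. Libraries of the 2 stages did not overlap for any of the 9 genes in either step, and for 65.9% and 58.7% of all genes. The median log2 change over all genes was 0.00 in both steps. Over the 9 genes the medians were 1.07 and -1.09. For pck1, fbp1b, pdk4, foxo1a, foxo3b, ppargc1a and igfbp1b the highest wild-type mean from 25 hpf on was at 5 day. For igfbp1b the 14 day mean was close to it (6.99 and 6.5 CPM at 5 and 14 day). By contrast, igfbp1a and angptl4 had their highest wild-type mean at 14 day. In the earlier steps 8 genes rose and 1 fell from 1 somite to 25 hpf, and 6 rose and 0 fell, of 8 tested, from 25 hpf to 2 day. The backgrounds were 76.9% passed (41.7% higher, 35.2% lower, 78.3% without overlap) and 59.7% passed (30.6% higher, 29.1% lower, 66.1% without overlap).

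**Figure D1:**
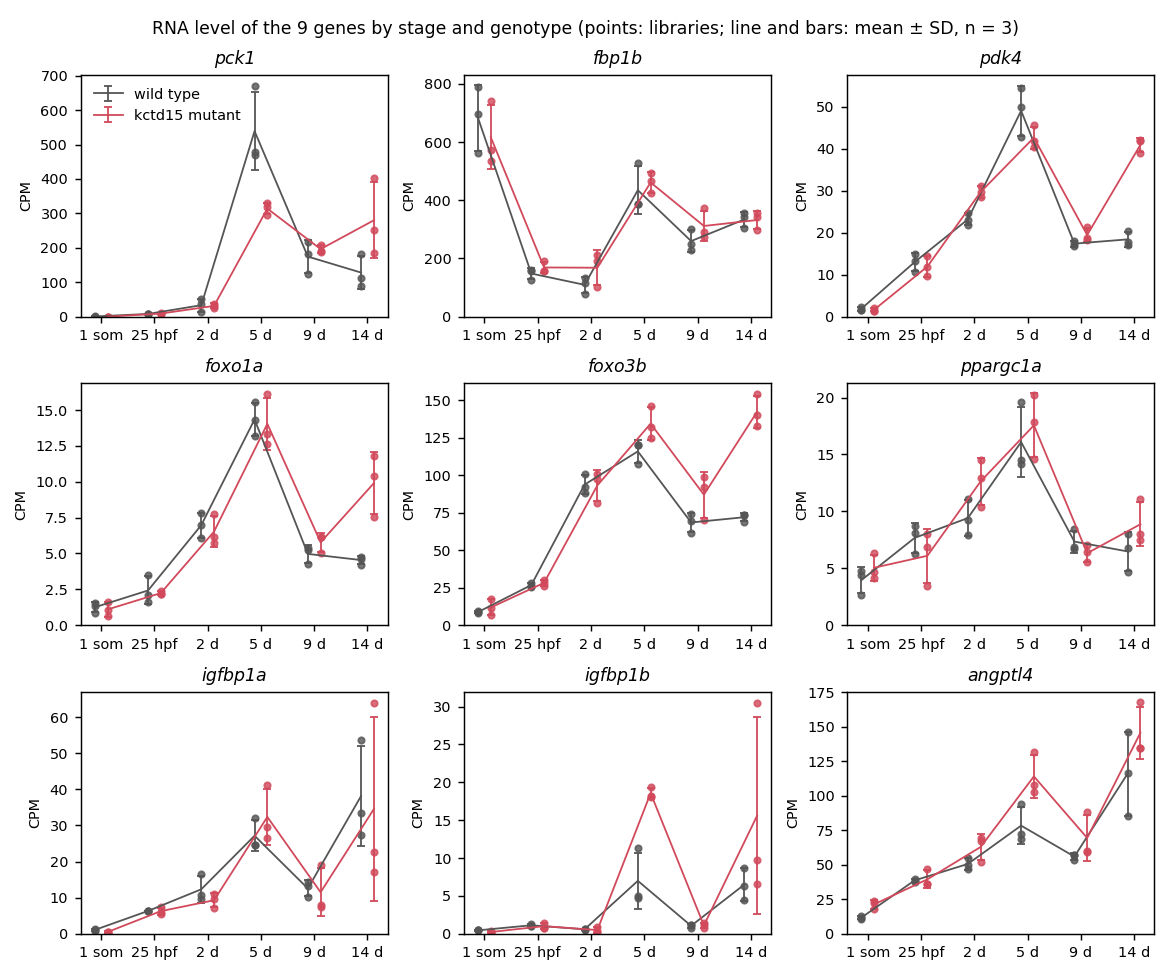
RNA level in CPM (vertical axes, from 0) of each gene at the 6 stages (horizontal axes) in wild type (grey) and kctd15 mutants (red); points are libraries, lines and bars are mean ± SD over 3 libraries. All 9 genes drop from 5 to 9 day in wild type, and pdk4, foxo1a and foxo3b stand apart between genotypes at 14 day.

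pck1 encodes cytosolic phosphoenolpyruvate carboxykinase, the enzyme that commits carbon to gluconeogenesis. At 1 somite it was close to undetected, with 3, 2 and 10 counts in the wild-type libraries. Its wild-type level was 8.02 ± 0.35 CPM at 25 hpf and 33.4 ± 18.9 CPM at 2 day, where the libraries ranged from 13.4 to 50.9 CPM. At 5 day the 3 libraries held 477, 670 and 470 CPM, far above every 2 day library. This was a 16.1-fold step (log2 4.01 ± 0.37, adjusted p = 2.76e-06). By 9 day the level was 175 ± 47.4 CPM, a 3.00-fold fall (adjusted p = 0.000132), and 128 ± 49 CPM at 14 day did not differ from 9 day beyond the spread (adjusted p = 0.281).

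fbp1b, which encodes a fructose bisphosphatase that acts late in gluconeogenesis, behaved differently at the start. It was highest at 1 somite, with 563, 696 and 789 CPM in wild type, and had fallen 4.46-fold by 25 hpf (126, 157 and 162 CPM, adjusted p = 3.70e-10). It was the 1 gene of the 9 that fell in that step. From 109 ± 27.5 CPM at 2 day it rose 3.95-fold to 435 ± 82 CPM at 5 day (adjusted p = 4.93e-06). Libraries of 9 and 14 day did not overlap (means of 260 and 334 CPM), but the difference missed the threshold (adjusted p = 0.0873).

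pdk4 encodes a kinase that shuts off pyruvate dehydrogenase and so spares glucose. In wild type it went from 1.89 ± 0.458 CPM at 1 somite to 13 ± 2.21, 23.2 ± 1.45 and 49 ± 5.93 CPM at 25 hpf, 2 day and 5 day, and each of these steps passed the test. The level then fell 2.75-fold to 17.4 ± 0.691 CPM at 9 day (log2 -1.46 ± 0.13, adjusted p = 1.39e-05). At 14 day it was 18.4 ± 1.79 CPM, not distinguishable from 9 day (adjusted p = 0.683).

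The FoxO genes foxo1a and foxo3b encode transcription factors that insulin signalling restrains, and ppargc1a encodes PGC-1alpha, a coactivator of gluconeogenic and mitochondrial genes. foxo1a rose from 6.98 ± 0.87 CPM at 2 day to 14.3 ± 1.15 CPM at 5 day and was 4.97 ± 0.604 CPM at 9 day (log2 1.03 ± 0.17 and -1.49 ± 0.17). foxo3b had most of its rise earlier, from 26.8 ± 1.31 CPM at 25 hpf to 93.7 ± 6.37 CPM at 2 day (3.70-fold, adjusted p = 2.94e-09). Its step to 116 ± 7.48 CPM at 5 day was small (log2 0.30 ± 0.11, adjusted p = 0.0376). That call held only with all libraries or without 2 day wild type 1: leaving out any other library of the pair gave an adjusted p of up to 0.162. ppargc1a had its highest mean, 16.1 ± 3.08 CPM, at 5 day and was 7.35 ± 0.969 CPM at 9 day (2.13-fold lower, adjusted p = 0.000678). Between 9 and 14 day none of these 3 genes passed (adjusted p = 0.732, 0.674 and 0.62 for foxo1a, foxo3b and ppargc1a).

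The secreted proteins had a second rise. igfbp1a and igfbp1b encode binding proteins that hold insulin-like growth factors and are induced by fasting and by hypoxia in fish. angptl4 encodes an inhibitor of lipoprotein lipase. From 9 to 14 day igfbp1a rose 3.06-fold (12.5 ± 2.21 to 38.1 ± 13.8 CPM, adjusted p = 0.00133), igfbp1b 6.17-fold (1.05 ± 0.25 to 6.5 ± 2.14 CPM, adjusted p = 0.00048) and angptl4 2.09-fold (56 ± 2.32 to 116 ± 30.4 CPM, adjusted p = 0.00249). These were the 3 of 9 genes that passed in this step, against 16.8% of all genes tested, 9.32% higher and 7.46% lower. Libraries did not overlap for 4 of 9 genes and 35.2% of all genes. igfbp1b rested on few counts at several stages. Its wild-type libraries held 4 to 5 counts each at 2 day, then 36, 106 and 35 counts at 5 day (4.99, 11.3 and 4.68 CPM) and 8 to 13 counts at 9 day.

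**Figure D2:**
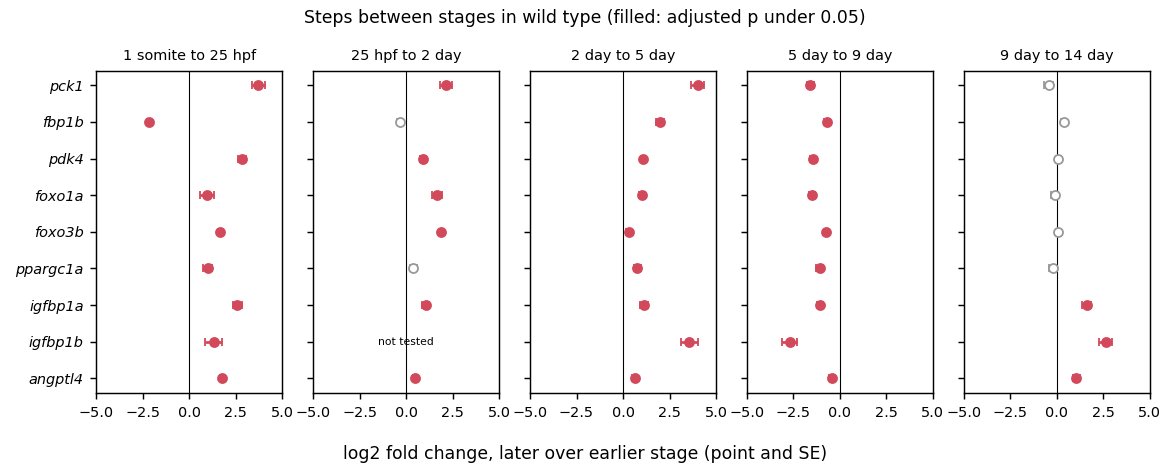
Log2 fold change (horizontal axes, later over earlier stage) of each gene in the 5 steps between wild-type stages; points are fitted values with approximate standard errors, filled where the adjusted p is under 0.05. All 9 points are right of 0 from 2 to 5 day and left of 0 from 5 to 9 day, and only the 3 secreted-protein genes are filled from 9 to 14 day.

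The clearest difference between genotypes came at 14 day, when the fuel-switch kinase gene and both FoxO genes were about 2-fold higher in kctd15 mutants. pdk4 held 17, 17.8 and 20.4 CPM in wild type and 41.8, 42 and 39 CPM in mutants. Every mutant library lay above every wild-type library, a 2.20-fold difference (log2 1.14 ± 0.13, edgeR adjusted p = 0.000978). foxo3b held 73.5, 73.4 and 68.9 CPM in wild type and 133, 140 and 154 CPM in mutants, again without overlap (1.96-fold, log2 0.97 ± 0.12, edgeR adjusted p = 0.00126). foxo1a was 4.63, 4.23 and 4.77 CPM in wild type and 7.51, 10.4 and 11.8 CPM in mutants (2.16-fold, log2 1.11 ± 0.21, edgeR adjusted p = 0.014). The pdk4 and foxo3b calls held with any 1 library left out. The foxo1a call was lost without mutant 3, at an adjusted p of 0.0508.

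pck1 at 14 day differed by as much but with more spread. Wild-type libraries held 183, 113 and 88.2 CPM, and mutant libraries held 185, 253 and 402 CPM. The groups did not overlap, though mutant 1 was level with wild type 1, and the 2.16-fold difference (log2 1.11 ± 0.30) missed the threshold (edgeR adjusted p = 0.0594). The pck1 difference passed when all 36 libraries shared 1 estimate of the spread (adjusted p = 0.00799) and with no filter on low counts (0.0383). It also passed without wild type 1 (0.0177) or mutant 1 (0.039), and the adjusted p rose to 0.182 without mutant 3. igfbp1b was 8.73, 4.47 and 6.3 CPM in wild type and 9.74, 6.61 and 30.5 CPM in mutants. Mutant 3 alone lay far above the rest, and the test was not passed (log2 1.24 ± 0.48, adjusted p = 0.166). The same library was highest for igfbp1a, with 63.9 CPM against 22.7 and 17.1 CPM in the other mutant libraries, where wild type held 27.4 to 53.7 CPM.

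The remaining genes did not pass at 14 day: fbp1b (log2 -0.02 ± 0.13), ppargc1a (0.45 ± 0.24), igfbp1a (-0.16 ± 0.41) and angptl4 (0.31 ± 0.18). In all, 3 of 9 genes were higher in mutants and 0 lower, while 4.8% of all genes tested passed, 2.31% higher and 2.5% lower. The number of all genes called, 1073, fell to as few as 556 with 1 library left out (without wild type 3). The median log2 fold change of the 9 was 0.97, against -0.01 over all genes tested. Because the 9 were chosen with earlier results of these data known, this is a description only. Groups did not overlap for 4 of the 9 and for 27.3% of all genes.

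At 5 day the direction for pck1 was the opposite. Mutant libraries held 317, 329 and 296 CPM, all below the wild-type libraries at 477, 670 and 470 CPM (1.73-fold lower, log2 -0.79 ± 0.13, edgeR adjusted p = 0.00316). This call held with any 1 library left out, but with all 36 libraries in 1 fit its adjusted p was 0.0574. igfbp1b was higher in mutants at 5 day, 18.1, 18.2 and 19.4 CPM against 4.99, 11.3 and 4.68 CPM. No libraries overlapped, and the fold was 2.57 (log2 1.36 ± 0.27, edgeR adjusted p = 0.00716). angptl4 was also higher, 108, 102 and 132 CPM against 72.6, 94 and 68.7 CPM (1.45-fold, log2 0.53 ± 0.14, edgeR adjusted p = 0.0278). The angptl4 call was weak: it was lost without wild type 1 or any of the 3 mutant libraries (adjusted p up to 0.105) and when scaled by library size only (0.102).

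These 5 day calls are 2 genes higher and 1 lower of 9, when 14% of all genes tested passed, 6.17% higher and 7.84% lower. Groups did not overlap for 4 of the 9 genes and for 33% of all genes. Scaled by library size only, 569 genes were higher and 3586 lower, with a median log2 value over all genes of -0.169. Neither pdk4 (42.6 ± 2.64 against 49 ± 5.93 CPM, adjusted p = 0.253), foxo1a (adjusted p = 0.871) nor foxo3b (134 ± 11.1 against 116 ± 7.48 CPM, adjusted p = 0.201) passed at this stage, though with library size only pdk4 did (log2 -0.39, adjusted p = 0.0384). The igfbp1a value was 0.23 ± 0.17, that of ppargc1a 0.11 ± 0.17 and that of fbp1b 0.08 ± 0.13 on the log2 scale, with no call. Fast muscle markers moved at 5 day as well: 8 of 9 were higher in mutants, with sums of 36835 to 39399 CPM in wild type and 50441 to 52682 CPM in mutants. Liver marker sums overlapped, at 6520 to 7497 CPM in wild type and 6701 to 8629 CPM in mutants. The other sums that did not overlap at 5 day were also higher in mutants: kidney markers at 353 to 402 against 417 to 461 CPM, intestine at 1174 to 1274 against 1314 to 1469 CPM, and endocrine pancreas at 110.2 to 155 against 163 to 190.6 CPM. Few genes of these lists were called: 2 higher and 1 lower of 8 for kidney, 1 higher of 7 for intestine and 1 higher of 6 for endocrine pancreas. The lower kidney gene, slc20a1a, held 33, 33.4 and 39.8 CPM in wild type and 15.1, 18.2 and 13.3 CPM in mutants. The called pancreas gene was neurod1, while ins (edgeR adjusted p = 0.287) and gcga (0.486) did not pass. Adipocyte sums overlapped. The part of tissue makeup in the pck1 and igfbp1b differences was not tested.

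At 1 somite, 1 of the 6 genes with enough counts to be tested passed. angptl4 held 11.2, 10.7 and 13.2 CPM in wild type and 17.9, 24 and 22 CPM in mutants (1.83-fold, log2 0.87 ± 0.15, edgeR adjusted p = 0.00267). Groups did not overlap and the call held with any 1 library left out. Without mutant 2, foxo3b also passed (0.039). At this stage 13.6% of all genes tested passed, 6.77% higher and 6.79% lower in mutants, and groups did not overlap for 31.7%. pck1, igfbp1a and igfbp1b were not tested there, with 0 to 12 counts per library.

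No gene of the set passed edgeR at 25 hpf, 2 day or 9 day, and none passed DESeq2 at these stages. At an unadjusted p under 0.05 there were 1, 4 and 1 genes. Over all genes tested, 13.6% passed at 25 hpf (6.82% higher, 6.75% lower), 6.86% at 2 day (4.7% higher, 2.17% lower) and 1.91% at 9 day (0.786% higher, 1.12% lower). Groups did not overlap for 0, 1 and 2 genes of the set, and for 30.3%, 31.7% and 21.8% of all genes. The nearest at 2 day was pdk4, with 21.8, 23 and 24.7 CPM in wild type and 28.4, 29.6 and 31 CPM in mutants (log2 0.43 ± 0.12, adjusted p = 0.0558). The groups did not overlap, and without wild type 3 the adjusted p was 0.037. fbp1b at 2 day had 117, 132 and 79 CPM in wild type and 193, 101 and 211 CPM in mutants, which overlapped (log2 0.69 ± 0.24, adjusted p = 0.103). Without mutant 2, fbp1b (0.0136) and angptl4 (0.0448) passed. At 9 day foxo3b had the lowest adjusted p of the 9, 0.257, at log2 0.33 ± 0.13. igfbp1b had too few counts to be tested at 25 hpf and 2 day, with 2 to 11 counts per library.

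**Figure D3:**
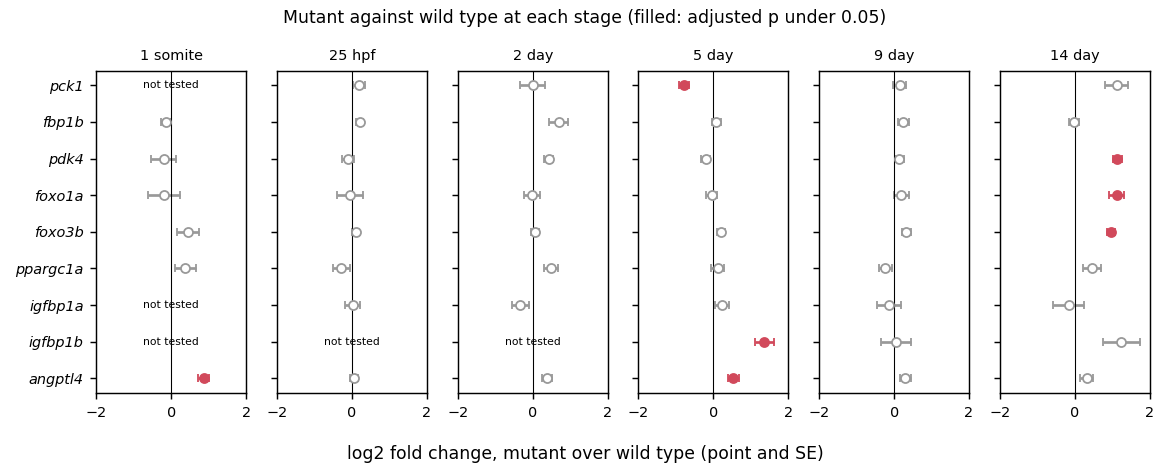
Log2 fold change (horizontal axes, mutant over wild type) of each gene at the 6 stages; points are fitted values with approximate standard errors, filled where the adjusted p is under 0.05, and genes with too few counts are marked not tested. Filled points are angptl4 at 1 somite, pck1, igfbp1b and angptl4 at 5 day, and pdk4, foxo1a and foxo3b at 14 day.

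Averaged over the 6 stages in a fit of all libraries, angptl4 was higher in mutants by 0.40 ± 0.07 on the log2 scale (edgeR adjusted p = 7.81e-05). Its fitted value was above 0 at every stage, from 0.05 at 25 hpf to 0.87 at 1 somite, but the 25 hpf value was -0.01 with library size only. foxo3b was higher by 0.34 ± 0.06 (edgeR adjusted p = 0.000215). pdk4 was higher by 0.19 ± 0.06 (edgeR adjusted p = 0.0375), a call lost without any 1 of 12 of the 36 libraries. Its fitted value was below 0 at 1 somite (-0.20), 25 hpf (-0.10) and 5 day (-0.21), and largest at 14 day (1.14). On this average 3 of 9 genes were higher and 0 lower, and over all genes tested 20.5% passed, 9.58% higher and 10.9% lower.

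The mutant effect differed between stages for 4 of the 9 genes, as for 25.5% of all genes tested. They were pdk4 (edgeR adjusted p of the interaction = 7.94e-06), foxo3b (0.00661), foxo1a (0.00971) and pck1 (0.0116). For pdk4 the fitted effects ran from -0.21 at 5 day to 1.14 at 14 day. For pck1 they were -0.79 at 5 day and 1.11 at 14 day. The interaction did not pass for angptl4 (0.148), igfbp1b (0.132), ppargc1a (0.224), fbp1b (0.251) or igfbp1a (0.764). It passed for igfbp1b without 5 day wild type 2 (0.0422), 14 day mutant 2 (0.0319) or 14 day mutant 3 (0.032), and for fbp1b without 2 day mutant 2 (0.0312).

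Other genes of the same pathways were counted from lists, leaving out the 9. The lists too were chosen with earlier results of these data known. Their counts stand beside shares over all genes tested of 13.6% passed at 25 hpf, 6.86% at 2 day, 14% at 5 day (6.17% higher, 7.84% lower) and 4.8% at 14 day (2.31% higher, 2.5% lower). Among 21 further genes of gluconeogenesis and glucose output, 0 passed at 14 day in either direction, with a median of 0.10. At 5 day 1 rose and 3 fell: pcxb, for pyruvate carboxylase, was higher (40.8 to 60.3 CPM, log2 0.55 ± 0.14), and lower were slc37a4a, the transporter that brings glucose phosphate to its phosphatase (46.7 to 28.9 CPM, -0.70 ± 0.11), the transaminase gene gpt2 (-0.61 ± 0.15) and the glucose transporter gene slc2a2 (-0.37 ± 0.10). At 25 hpf 5 rose and 0 fell, among them mdh1ab, for a malate dehydrogenase (0.97 ± 0.11), and the glucose phosphatase genes g6pca.1 (1.44 ± 0.40) and g6pca.2 (0.37 ± 0.11). g6pca.1 was higher at 2 day as well (1.9 to 4.72 CPM, 1.37 ± 0.31), together with fbp1a (0.59 ± 0.13). At 1 somite 3 of 17 genes of this list rose and 3 fell, when 13.6% of all genes tested passed. On the stage average 5 of 21 were higher and 2 lower, when 20.5% passed. Levels of the tissue marker lists also differed at 25 hpf and 2 day. That the lists measure the named organs in embryos was not tested: wild-type intestine sums were already 498 to 607 CPM at 1 somite. At 25 hpf 7 of 13 liver markers tested were higher and 1 lower in mutants, with sums of 2785 to 4145 CPM in wild type and 4371 to 4908 CPM in mutants, and 8 of 9 fast muscle markers were higher. Adipocyte sums at 25 hpf were 134 to 158 CPM in wild type and 160 to 198 CPM in mutants, with 1 of 3 genes tested called higher. Endocrine pancreas sums there were 56.8 to 61.4 against 64.8 to 72 CPM, with 0 of 4 genes called. Kidney sums overlapped at 25 hpf. Intestine sums were 563 to 679 CPM in wild type and 877 to 1125 CPM in mutants at 25 hpf, and 168 to 205 against 329 to 634 CPM at 2 day. Of 5 intestine markers tested at 2 day, 3 were higher in mutants and 1 lower. Adipocyte sums at that stage went the other way without overlap: wild-type libraries held 146 to 160 CPM, mutant libraries 107 to 121. Liver sums at 2 day overlapped, though the mutant mean was lower (4998 against 6495 CPM). Kidney, fast muscle and endocrine pancreas sums also overlapped there. The part of these marker differences in the list counts was not tested.

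Other pyruvate dehydrogenase kinase genes were called at several stages. pdk1 was lower in mutants at 1 somite (51.9 to 23.5 CPM, log2 -1.14 ± 0.10), 25 hpf (-0.61 ± 0.12) and 5 day (86.5 to 40.6 CPM, -1.10 ± 0.16). pdk2b was lower at 2 day (5.18 to 1.38 CPM, -1.88 ± 0.41) and higher at 14 day, where wild type held 30.4, 30.1 and 63.8 CPM and mutants 144, 86.9 and 219 CPM (1.83 ± 0.35, edgeR adjusted p = 0.0145). It was the 1 of 11 genes of the pyruvate dehydrogenase list that rose at 14 day, and 0 fell. Of 4 further FoxO family genes tested, 0 passed at 14 day, with a median of 0.29. At 5 day 1 was higher and 0 lower: si:ch211-206a7.2, matched to foxo6b (7.37 to 12.7 CPM, log2 0.77 ± 0.18, edgeR adjusted p = 0.015). On the stage average 3 of the 4 were higher and 0 lower, when 20.5% of all genes tested passed, 9.58% higher and 10.9% lower.

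Insulin and glucagon RNAs did not pass in any mutant comparison in which they were tested. ins was 29.4 CPM in wild type and 27 CPM in mutants at 14 day (adjusted p = 0.645), and gcga 12.9 and 10.8 CPM (0.414). Of 28 insulin and glucagon signalling genes tested at 14 day, 4 rose and 0 fell: the insulin receptor substrate genes irs1 (14.6 to 26.2 CPM, log2 0.83 ± 0.13) and irs2a (12.4 to 31.5 CPM, 1.32 ± 0.28), the kinase gene sik2b (0.67 ± 0.12) and the insulin receptor gene insra (32.6 to 48.9 CPM, 0.57 ± 0.13). The list median was 0.14. The other receptor gene, insrb, was higher at 5 day (0.43 ± 0.11, edgeR adjusted p = 0.0254). In the IGF axis, 0 of 21 further genes rose at 14 day and 1 fell, stc2a (-0.79 ± 0.16). ghrb, for a growth hormone receptor, was lower at 25 hpf, 2 day and 5 day (log2 -0.57 ± 0.15, -0.73 ± 0.20 and -0.84 ± 0.18). Other called genes of this list went the other way at 2 and 5 day, but not at 25 hpf. It had 0 higher and 1 lower of 15 at 25 hpf, 1 and 1 of 20 at 2 day, and 4 and 2 of 21 at 5 day. On the stage average 5 of 21 were higher and 1 lower, when 20.5% of all genes tested passed.

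Fat-burning genes included large changes in a few members at 14 day. cpt1b, which encodes the carnitine transferase that admits fatty acids to mitochondria in muscle, went from 12.2, 12.9 and 18 CPM in wild type to 42.4, 39.7 and 39.6 CPM in mutants (log2 1.47 ± 0.16, edgeR adjusted p = 0.000796). lpin1, for the phosphatidate phosphatase lipin, went from 12.2, 21.5 and 33.8 CPM to 112, 84.5 and 133 CPM (2.27 ± 0.30, edgeR adjusted p = 0.00234). Neither gene's libraries overlapped between genotypes. They were the 2 of 26 further genes of PGC-1, PPAR and fatty acid oxidation that rose, 0 fell, and the median was 0.13. At 5 day lpin1 was lower in mutants (133 to 83 CPM, -0.69 ± 0.19), 1 of 3 that fell while 0 rose. angptl2a, a relative of angptl4, was higher in mutants at 1 somite, 25 hpf, 2 day, 5 day and 9 day and by 1.02 ± 0.10 on the stage average (edgeR adjusted p = 1.26e-09).

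Of 19 FoxO target genes 2 rose and 2 fell at 14 day. irs2a and the repressor gene bcl6a (0.86 ± 0.16) were higher, and bcl6b (-1.04 ± 0.19) and gadd45ba (107 to 43.7 CPM, -1.31 ± 0.30) were lower. The list median was 0.14 at 14 day. At 5 day 3 rose and 2 fell, when 14% of all genes tested passed, and the median was 0.17. Libraries at 5 day lay the opposite way without overlap for gadd45ba (20, 22.9 and 17.2 CPM in wild type, 42.5, 51 and 46.5 in mutants). The same held for bcl6a (23, 20.5 and 27.1 against 15.5, 14.1 and 11.2 CPM). bcl6b was reversed as well (6.93, 6.08 and 7.08 against 7.41, 8.53 and 7.40 CPM), while irs2a libraries overlapped.

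Of the glucocorticoid-response genes tested, 2 were higher and 0 lower in mutants at each of 1 somite, 25 hpf and 2 day, and more were called at 5 and 14 day. fkbp5, for a cochaperone of the glucocorticoid receptor that the hormone induces, held 126, 229 and 92.8 CPM in wild type at 5 day and 23.5, 15.4 and 40.2 CPM in mutants (log2 -2.49 ± 0.36, edgeR adjusted p = 0.00132). At 14 day it held 86.2, 134 and 84.5 CPM in wild type and 523, 510 and 513 CPM in mutants (2.33 ± 0.18, edgeR adjusted p = 0.000178). The genotypes did not overlap at either stage, and the direction was opposite. Of 10 such genes 4 rose and 0 fell at 14 day, the others being klf9 (16.2 to 53.6 CPM, 1.70 ± 0.26), hsd11b2, for the enzyme that inactivates cortisol (1.01 ± 0.15), and the clock gene per1a (27.4 to 66.5 CPM, 1.27 ± 0.13). The median of this list was 0.43 at 14 day. At 5 day 2 rose and 3 fell, with a median of -0.10.

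Of 20 hypoxia genes 4 rose and 0 fell at 14 day: lonrf1l (1.11 ± 0.13), the glycolysis regulators pfkfb3 (18.3 to 53.5 CPM, 1.53 ± 0.21) and pfkfb4b (1.23 ± 0.16), and ndrg1b (1.41 ± 0.24). The median was 0.18. At 25 hpf 4 of 20 hypoxia genes rose and 1 fell, when 13.6% of all genes tested passed. At 5 day 1 of 20 rose and 3 fell, when 14% passed, with a median of -0.17. Kidney markers rose in 2 of 8 cases at 14 day, lrp2a (0.83 ± 0.15) and slc20a1a (14.4 to 27.6 CPM, 0.93 ± 0.17), and their sum was 200.1 to 378 CPM in wild type and 287 to 338 CPM in mutants. Liver marker sums overlapped at 14 day (12566 to 13596 CPM in wild type, 11135 to 13653 in mutants), as did fast muscle sums. Of the adipocyte markers tested, 3 of 5 fell and 0 rose. They were the adiponectin gene adipoqb (7.06 to 2.98 CPM, -1.25 ± 0.20), cebpa and fabp11a. The summed level of 8 was 199.6 to 213.9 CPM in wild type and 128.8 to 147.3 in mutants. Most of that sum was fabp11a (117, 124 and 138 CPM in wild type, 97.8, 81.2 and 67 in mutants) and cebpa (77.7, 59.9 and 58.7 against 39.7, 44 and 48.6). pparg libraries overlapped between genotypes. Whether the sum follows adipose tissue was not tested. The part of hormone response, hypoxia response, hour of collection or tissue makeup in the 14 day values was not tested.

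**Figure D4:**
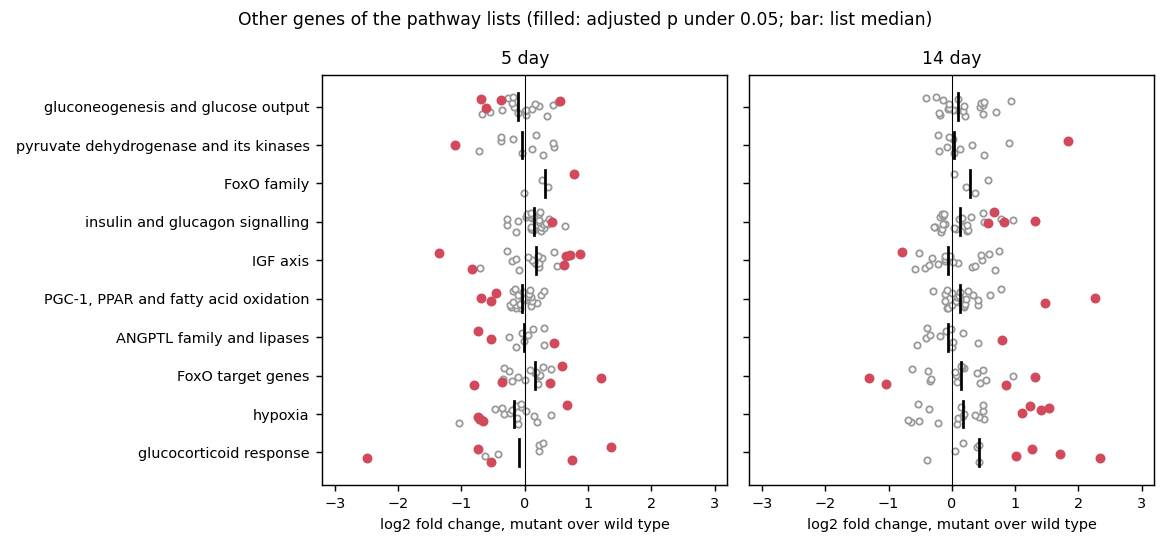
Log2 fold change (horizontal axes, mutant over wild type) of the other tested genes of 10 pathway lists at 5 and 14 day; each point is a gene, filled where the adjusted p is under 0.05, and bars are list medians. At 14 day the glucocorticoid list has a median of 0.43 and 4 filled points, all right of 0, while the gluconeogenesis list has 0 filled points.

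foxo1a was the only one of the 9 genes with more than 1 transcript found in the transcript table. Of its counts, 28.3 to 100% per library were assigned to a predicted RefSeq model and the rest to a curated one. The lowest share was that of 25 hpf mutant 1, in a group with only 9 to 14 counts per library, so the range rests partly on few counts. At 14 day these shares were 78.9, 82.5 and 100% in wild type and 100, 95.7 and 77.5% in mutants, which overlapped. The other 8 genes had 1 listed transcript each, which held 99.6 to 100.1% of the gene's counts.

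The genes whose levels were most like those of each member were taken over all 36 libraries, by Pearson's r of log2 CPM, among 12903 candidates (12904 for igfbp1b) with a mean of at least 5 CPM. These libraries share their stages, and r is given as a description. The nearest gene was gcdha for pck1 (r = 0.986), itm2ba for fbp1b (0.933), ppip5k1a for pdk4 (0.977), atg9a for foxo1a (0.963) and myt1la for foxo3b (0.979). It was grinaa for ppargc1a (0.896), oaz2a for igfbp1a (0.964), nfe2l1a for igfbp1b (0.935) and tsc22d3 for angptl4 (0.956).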

How the data were processed

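RNA-seq of 36 zebrafish libraries was analysed from the deposited gene table. Per the submitters' processing notes, Trimmomatic 0.36, kallisto 0.43.0 and edgeR were used, with build GRCz10; settings are not given in the sources used here. The authors' gene and transcript tables hold estimated counts per RefSeq gene or transcript, not normalized; 84.1% of the gene values are not whole, and they were rounded for tests. The deposited normalized signal is CPM times 1 factor per library (0.86 to 1.26) and was not used further.

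Genes passing filterByExpr were scaled by TMM and tested with edgeR 4.0.16 (glmQLFit, glmQLFTest) in R 4.3.3, per stage (6 libraries) and per wild-type step; 1 fit of all 36 gave the averaged effect and the interaction (5 degrees of freedom). DESeq2 1.42.0 was an alternative. CPM uses TMM factors over all 36 libraries. The fits were tested on simulated data. For the stage fit, counts were drawn from the 5 day library sizes and wild-type means, with the same set spread for every gene. The fit recovered 42 of 100 genes changed 2-fold and 98 of 100 changed 4-fold, and called 6 unchanged genes. Real genes differ in spread, so these shares do not carry over to the data. A gene that did not pass can still differ by 2-fold: pck1 at 14 day did not pass at log2 1.11 (edgeR adjusted p = 0.0594). Members and lists were chosen with earlier results of these data known. Named genes beyond the 9 are the called list genes with the smallest p, up to 4 per list and comparison, and insulin, glucagon, IGF and receptor genes. Symbols gpt, sds, foxo6a and irs4b had no match. Replicate numbers did not pair libraries. No sequences or coordinates were used.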

Additional observations from a re-analysis of the deposited data

Results flagged for a closer look

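The mutant effect differed between stages, by the edgeR interaction test over 6 stages, for 4 genes. The adjusted p was 7.94e-06 for pdk4, 0.00661 for foxo3b, 0.00971 for foxo1a and 0.0116 for pck1. For the FoxO genes and pdk4 the largest fitted effect was at 14 day (0.97, 1.11 and 1.14 on the log2 scale for foxo3b, foxo1a and pdk4). pck1 was lower in mutants at 5 day (-0.79) and had a value of 1.11 at 14 day that missed the threshold on its own. All 4 interaction calls held with any 1 of the 36 libraries left out (highest adjusted p = 0.0442, for foxo1a).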

How the results depend on the processing

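Without 1 library at a time, the number of the 9 genes called ran from 1 to 2 at 1 somite, 0 to 2 at 2 day, 2 to 3 at 5 day and 2 to 4 at 14 day, and stayed at 0 at 25 hpf and 9 day. With all 36 libraries in 1 fit the counts were 1 at 2 day and 5 at 14 day, where pck1 and igfbp1b (adjusted p = 0.016) also passed. Calls of wild-type steps that were lost without 1 library, beside that of foxo3b, were foxo1a (up to 0.182, without 1 somite wild type 1 or 3 or 25 hpf wild type 1) and igfbp1b (0.0561, without 1 somite wild type 2) from 1 somite to 25 hpf, and angptl4 (up to 0.0547, without wild type 2 of either stage) from 5 to 9 day.

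The values that changed sign were all uncalled. With library size only they were igfbp1a -0.048 and angptl4 -0.011 at 25 hpf, pck1 0.0075 at 2 day, fbp1b -0.099 and ppargc1a -0.062 at 5 day, and pdk4 -0.13 and foxo3b -0.15 from 9 to 14 day. With all 36 libraries they were igfbp1a -0.0073 at 25 hpf and foxo3b -0.0074 at 2 day. Without 1 library, the ranges were foxo1a -0.56 to 0.074 at 1 somite; pdk4 -0.26 to 0.018, foxo1a -0.28 to 0.28, igfbp1a -0.12 to 0.10 and angptl4 -0.094 to 0.13 at 25 hpf; pck1 -0.38 to 0.40 and foxo1a -0.17 to 0.070 at 2 day; and foxo1a -0.15 to 0.028 at 5 day. They were pck1 -0.044 to 0.34, igfbp1a -0.72 to 0.086 and igfbp1b -0.23 to 0.28 at 9 day, fbp1b -0.087 to 0.050 and igfbp1a -0.95 to 0.18 at 14 day, and ppargc1a -0.36 to 0.014 from 9 to 14 day. The cause was not tested.

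Same-numbered wild-type and mutant libraries correlated at -0.176 to 0.0637, so the numbers gave no sign of pairing. From 1 somite to 25 hpf in wild type each of 3 libraries correlated best with its own number (0.0416 to 0.0765), which is only a hint. With the replicate block the 9 genes lost the calls of angptl4 at 5 day (0.0779), foxo1a from 1 somite to 25 hpf (0.0538), foxo3b from 2 to 5 day (0.0909) and the pck1 interaction (0.0756), and pck1 at 2 day was 0.11. Over all genes the block gave 1317 calls against 2285 at 1 somite, 790 against 1388 at 2 day, 1636 against 3014 at 5 day and 3598 against 6219 for the interaction.

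Over all genes, the 36-library fit gave 1473 calls against 2564 at 25 hpf, 3016 against 1388 at 2 day (1308 higher, 1708 lower), 750 against 422 at 9 day and 2705 against 1073 at 14 day, and DESeq2 gave 640 at 9 day. Library size only shifted the split to 132 higher and 331 lower at 9 day, 984 and 1740 at 25 hpf, 1395 and 915 for 1 somite, 1707 and 3643 on average, 9928 and 5147 from 1 somite to 25 hpf, 4439 and 6583 from 5 to 9 day and 1355 and 4519 (5874 against 3759 in all) from 9 to 14 day. Its median log2 shift over all genes was 0.42, 0.116, -0.134 and -0.221 in the steps from 1 somite, 2 day, 5 day and 9 day. Leaving out 1 library moved all-gene calls by over 1.5 times at 5 stages and in 1 step. They fell from 2285 to 1397 to 1502 for 1 somite (wild type 1, mutants 1 and 3), from 422 to 205 to 269 at 9 day (wild type 3, each mutant), from 1073 to 556 to 667 at 14 day (wild types 2 and 3, mutants 1 and 3) and from 3759 to 2414 to 2450 from 9 to 14 day (9 day wild types 2 and 3, 14 day wild type 3). At 2 day they were 555 to 836 (wild types 1 and 2, mutants 2 and 3) or 2497 (wild type 3) against 1388, and at 5 day 1381 to 1754 (wild types 1 and 2, mutants 1 and 2) or 4723 (wild type 3) against 3014.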
